A study of Arabidopsis thaliana with 18 samples.

Results

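GH3.3, GH3.5 and IAA29 are 3 auxin genes of Arabidopsis thaliana, and they are described here on 18 Affymetrix ATH1 arrays, which measure each transcript with a set of short probes (a probe set). They were found by locus in the annotation of the array, as AT2G23170 (GH3.3, probe set 245076_at), AT4G27260 (GH3.5, also called WES1, probe set 253908_at) and AT4G32280 (IAA29, probe set 253423_at). Each gene had 1 probe set that names it alone, out of 22810 probe sets on the array, and all 3 passed the filter on dim signals, which left 13652 probe sets for testing. All plants were of the accession Col-0. The 9 control arrays, numbered 1 to 9 in their titles, came from plants given 0.02% silwet, a surfactant. The 9 treated arrays, 10 to 18, came from plants given 0.30 mM salicylic acid (SA), a hormone of plant defence, in the same 0.02% silwet. Both treatments therefore contain the surfactant, and no plants without it were analysed here. Within a treatment the title numbers form 3 triplets, each with replicate numbers 1, 2 and 3. The first triplets are silwet arrays 1 to 3 and SA arrays 10 to 12, the second are 4 to 6 and 13 to 15, and the third are 7 to 9 and 16 to 18. The labels used here say neither what a triplet stands for nor which tissue, age or harvest time was used. Harvests at more than 1 time are known of this study, but no array could be tied to one.

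Auxin is a growth hormone that acts by causing the breakdown of Aux/IAA proteins, repressors that hold back the auxin response factors. Early auxin-induced genes that work against the signal include the Aux/IAA genes themselves, to which IAA29 belongs, and the GH3 genes. GH3.3 and GH3.5 encode enzymes that join auxin to amino acids, which takes the hormone out of use or marks it for breakdown. GH3.5 can also act on SA, and is known from mutant and overexpression plants as a link between auxin and SA responses. IAA29 is known to be induced in shade and in warmth by the phytochrome-interacting factors. SA is known to dampen auxin responses in leaves, so the comparison asks whether transcripts of the auxin feedback genes differ between plants given SA and plants given the surfactant alone. No sequence of these genes is printed, since no sequence table was used here.

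One array stood apart from the others before any comparison. SA array 10 had a weak 5 prime signal of the actin control, at 22.7 against 141 to 637 on the other 17 arrays. Its log2 ratio of 3 prime over 5 prime actin signal was 5.66, and the ratio lay between 0.78 and 2.96 elsewhere. Differences that include this array are given with it and, where noted, without it. The median signal lay between 29.7 and 36.3, and the signals of the 3 members were 4.28 to 63.4 times the 20th percentile of their array. The 3 leaf markers named were RCA, LHCB4.1 and LHCB4.2. Their summed signal was 6484 to 7102 on SA arrays 10 to 12, below the 7465 to 9508 of silwet arrays 1 to 3. Of all tested probe sets, 17.8% had these SA arrays all below these silwet arrays. None of the leaf markers passed on its own, and their part in the differences of the 3 genes was not tested. The summed signal of the 3 root markers named was 80.6 to 126 and 61.1 to 171 in the same groups. Of these, PYK10 alone passed the filter, EXPA7 was at most 17.4 and AT5G17820 at most 2.02. No flower or seed marker was named.

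GH3.3 was higher on the SA arrays than on the silwet arrays of the first triplet, by 3.2-fold, and was the only member for which a difference between SA and silwet passed the test. Its signal, a MAS5 intensity on a linear scale, was 68.9, 35.5 and 102 on silwet arrays 1, 2 and 3 and 145, 163 and 336 on SA arrays 10, 11 and 12. All 3 SA arrays lay above all 3 silwet arrays, and SA array 12 was the brightest of the 18. The 3 SA arrays also lay above the other 15 arrays, as did those of 8.54% of probe sets. The mean log2 signal was 7.64 ± 0.66 in the SA group and 5.98 ± 0.77 in the silwet group (SD over 3 arrays). The difference was 1.66 with a standard error of 0.41, a 95% interval of 0.80 to 2.53 and an adjusted p of 0.0152 (limma, Benjamini-Hochberg over all 13652 probe sets). The arrays of the same replicate number differed by 2.11-fold, 4.59-fold and 3.28-fold for replicates 1, 2 and 3. Without SA array 10, on which GH3.3 was lower than on SA arrays 11 and 12, the difference was 1.89 (limma, adjusted p = 0.0160). In bulk samples, fewer cells of a type and less RNA per cell cannot be told apart.

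The call of GH3.3 in the first triplet stood among many others and rested on single arrays. In that triplet 1679 of the 13652 probe sets passed, which is 12.3%, with 845 higher (6.19%) and 834 lower (6.11%). With the replicate number as a block 2519 passed, and leaving out silwet array 3, SA array 11 or SA array 12 gave 931, 957 and 1021. The count was 1322 without SA array 10. Of all tested probe sets, 49 had a higher difference than GH3.3 and it ranked 787 by p. SA arrays all above the silwet arrays, as for GH3.3, were found for 12.7% of probe sets. The difference of GH3.3 was 1.25 without silwet array 2 (limma, adjusted p = 0.0641) and 1.29 without SA array 12 (limma, adjusted p = 0.0717). It remained past the threshold without any one of the other 16 arrays. An exact permutation test of 3 arrays against 3 gave p = 0.10 (two-sided), the smallest it allows.

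In the second and the third triplet the level of GH3.3 was also higher with SA on average, yet neither difference passed the test. Its signal was 41.3, 60.8 and 53.7 on silwet arrays 4, 5 and 6 and 89.4, 44.9 and 81.5 on SA arrays 13, 14 and 15. SA array 14 lay within the silwet range and the other two lay above it. The difference was 0.43 log2 units with a 95% interval of -0.44 to 1.29 (limma, adjusted p = 1.00). It was 0.24 without SA array 13, 0.27 without silwet array 4 and 0.73 without SA array 14. In the third triplet the signal was 54.7, 27.6 and 31.3 on silwet arrays 7, 8 and 9 and 77.0, 63.4 and 41.8 on SA arrays 16, 17 and 18. SA array 18 fell within the silwet range. The difference was 0.70 with an interval of -0.16 to 1.57 (limma, adjusted p = 0.957). In these triplets few probe sets passed at all, 41 (0.3%) and 2 (0.0146%), counted in either direction. With the replicate block the count in the third triplet was 7, with array weights the counts were 69 and 41, and with median centring the count in the third was 0. In the weighted fit silwet array 8, of the third triplet, had a weight of 6.01, against 0.56 to 1.77 for the other arrays. Higher differences than that of GH3.3 were found for 0.359% of probe sets in the first triplet, 5.52% in the second and 1.06% in the third. Larger ones in either direction were found for 0.615%, 11.3% and 2.10%.

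**Figure D1:**
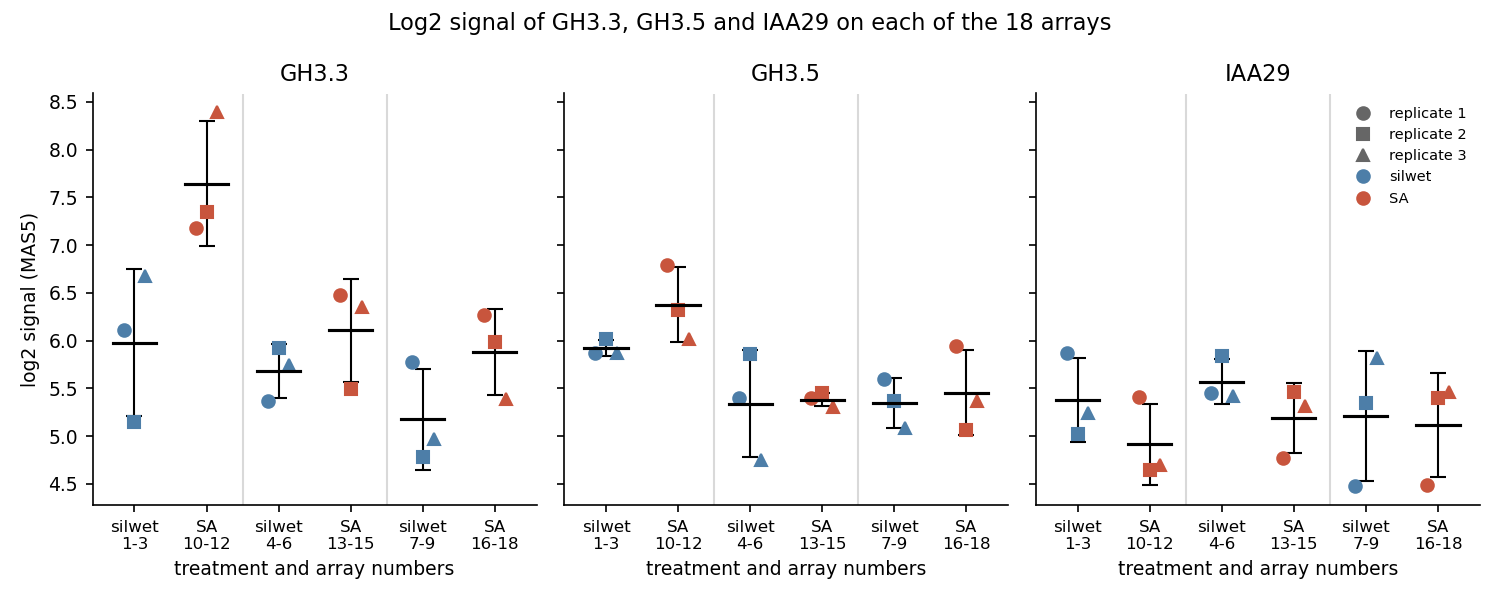
Log2 MAS5 signal of each gene on each of the 18 arrays, grouped by treatment and title number; symbols mark the replicate number, black lines the mean and bars the SD of 3 arrays. For GH3.3, SA arrays 10 to 12 (7.64 ± 0.66) lie above all other arrays; the groups of IAA29 overlap in every triplet.

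Averaged over the triplets, GH3.3 was 0.93 log2 units higher with SA, with a standard error of 0.24 and a 95% interval of 0.43 to 1.43, which is a 1.91-fold difference. SA exceeded silwet in 8 of 9 pairs of the same triplet and replicate number, the exception being replicate 2 of the second triplet. The share of all probe sets with such a pair count was not taken, for GH3.3 or for GH3.5 and IAA29 below. The mean over pairs was 0.89, 0.99 and 0.91 within replicate numbers 1, 2 and 3. Adjusted over all probe sets the difference did not pass (limma, adjusted p = 0.404), and 27 probe sets had a higher average difference. It was 1.01 without SA array 10 (limma, adjusted p = 0.220). In that comparison 4 probe sets passed (0.0293%), counted in either direction. As a single value, tested over all 8000 ways to exchange arrays within triplets, the average difference had an exact permutation p of 0.00375 (two-sided), not corrected for the choice of this gene among many.

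Whether the difference of GH3.3 between SA and silwet itself changed from triplet to triplet was tested and did not pass. It was 1.24 log2 units smaller in the second triplet than in the first, with a standard error of 0.58 and a 95% interval of -2.46 to -0.01 for the change (limma, adjusted p = 0.20). In the F test over the 3 triplets the adjusted p was 0.357, where 1141 probe sets (8.36%) passed, or 1828 with the replicate block. When SA array 10 was left out, the adjusted p of GH3.3 was 0.285 (limma F test) and 971 probe sets passed. The larger difference in the first triplet is therefore not shown to be particular to it.

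No difference of GH3.5 between SA and silwet passed the test, and its largest, in the first triplet, leaned on SA array 10. Its signal was 58.5, 64.8 and 58.7 on silwet arrays 1, 2 and 3, and 111, 80.2 and 64.7 on SA arrays 10, 11 and 12. SA array 10 was the highest of the 18, and SA array 12 lay just below silwet array 2. The difference in the first triplet was 0.46 log2 units with a 95% interval of -0.12 to 1.03 (limma, adjusted p = 0.301), and 0.25 without SA array 10 (adjusted p = 0.650). On silwet arrays 4, 5 and 6 the signal was 42.3, 58.3 and 26.9, against 42.1, 43.6 and 39.6 on SA arrays 13, 14 and 15, all inside the silwet range. On silwet arrays 7, 8 and 9 it was 48.4, 41.2 and 33.9, against 61.5, 33.4 and 41.2 on SA arrays 16, 17 and 18, which reached past that range on both sides. The SA arrays of the second triplet were closer together than those of the others, with an SD of 0.07 log2 units against 0.39 and 0.45. The differences in the second and the third triplet were 0.04 and 0.11 (limma, adjusted p = 1.00 and 0.985). The average over triplets was 0.20 with an interval of -0.13 to 0.54 (limma, adjusted p = 1.00), and SA exceeded silwet in 6 of 9 pairs. Leaving out SA array 10, SA array 16 or silwet array 6 gave 0.13, 0.12 and 0.11 (limma, adjusted p of at least 0.994). The exact permutation test within triplets gave p = 0.231 (two-sided). The interval of the average leaves room for a difference of up to 1.45-fold, and that of the first triplet for up to 2.05-fold.

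The difference between SA and silwet was larger for GH3.3 than for GH3.5, by 0.73 log2 units averaged over the triplets. This was tested on the log2 signal of GH3.3 minus that of GH3.5 on each array, which asks for unequal change and says nothing of either level. The exact permutation test within triplets gave p = 0.0270 (two-sided, 8000 arrangements). This p-value is not corrected for the choice of the genes, which was made with earlier results of these data known. SA arrays 10, 11 and 12 had values of 0.39, 1.02 and 2.38, against 0.24, -0.87 and 0.80 for silwet arrays 1, 2 and 3, so the groups overlapped. By triplet the difference was 1.21, 0.38 and 0.60 (exact permutation p = 0.2, 0.3 and 0.2, with 0.1 the smallest possible). The p-value depended on single arrays: leaving out silwet array 2, 4 or 5 gave 0.0680, 0.0568 and 0.0533. Leaving out SA array 12, 13 or 15 gave 0.0653, 0.0548 and 0.0543 (exact permutation tests). Without SA array 10 the difference was 0.87 (exact permutation p = 0.0163).

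IAA29 was lower with SA on average in each triplet, and none of these differences passed. Its signal was 58.4, 32.4 and 37.9 on silwet arrays 1, 2 and 3 and 42.4, 25.1 and 25.9 on SA arrays 10, 11 and 12. SA array 10 lay within the silwet range, and the others lay below it. On silwet arrays 4, 5 and 6 the signal was 43.7, 57.3 and 42.8, against 27.3, 44.2 and 39.95 on SA arrays 13, 14 and 15, so that only SA array 14 reached the silwet range. On silwet arrays 7, 8 and 9 it was 22.2, 40.6 and 56.3, against 22.4, 42.3 and 44.0 on SA arrays 16, 17 and 18. In the third triplet the replicate 1 arrays of both treatments were the low ones. The differences were -0.46, -0.38 and -0.10 log2 units in the first, the second and the third triplet (limma, adjusted p = 0.429, 1.00 and 0.992). Without SA array 10 the first was -0.71, and without silwet array 1 it was -0.21 (limma, adjusted p = 0.263 and 0.770). The second was -0.18 without SA array 13, and the third ranged from -0.46 without silwet array 7 to 0.22 without SA array 16. The average was -0.31 with a 95% interval of -0.74 to 0.11 (limma, adjusted p = 1.00; exact permutation test within triplets, two-sided, p = 0.155), and leaving out SA array 10 or 16 gave -0.40 and -0.21. SA lay below silwet in 7 of 9 pairs, including all 3 of the first and all 3 of the second triplet. How many of all probe sets have such pairs was not counted. The F test of the treatment difference over triplets gave an adjusted p of 0.890 for IAA29 and 0.769 for GH3.5.

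**Figure D2:**
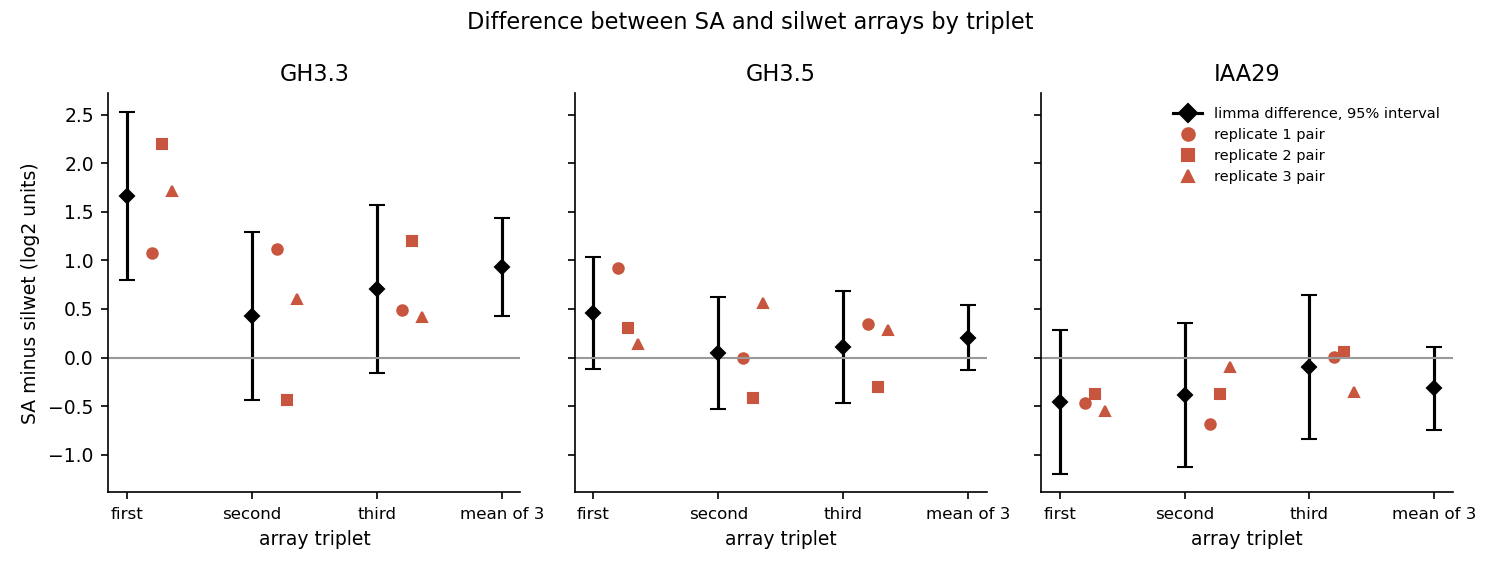
SA minus silwet in log2 units for each gene, by array triplet and as the mean of 3 triplets; diamonds with bars are limma differences with 95% intervals and coloured symbols are pairs of arrays with the same replicate number. The interval of GH3.3 in the first triplet (0.80 to 2.53) and that of its mean (0.43 to 1.43) lie above 0; those of GH3.5 and IAA29 include 0.

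**Figure D3:**
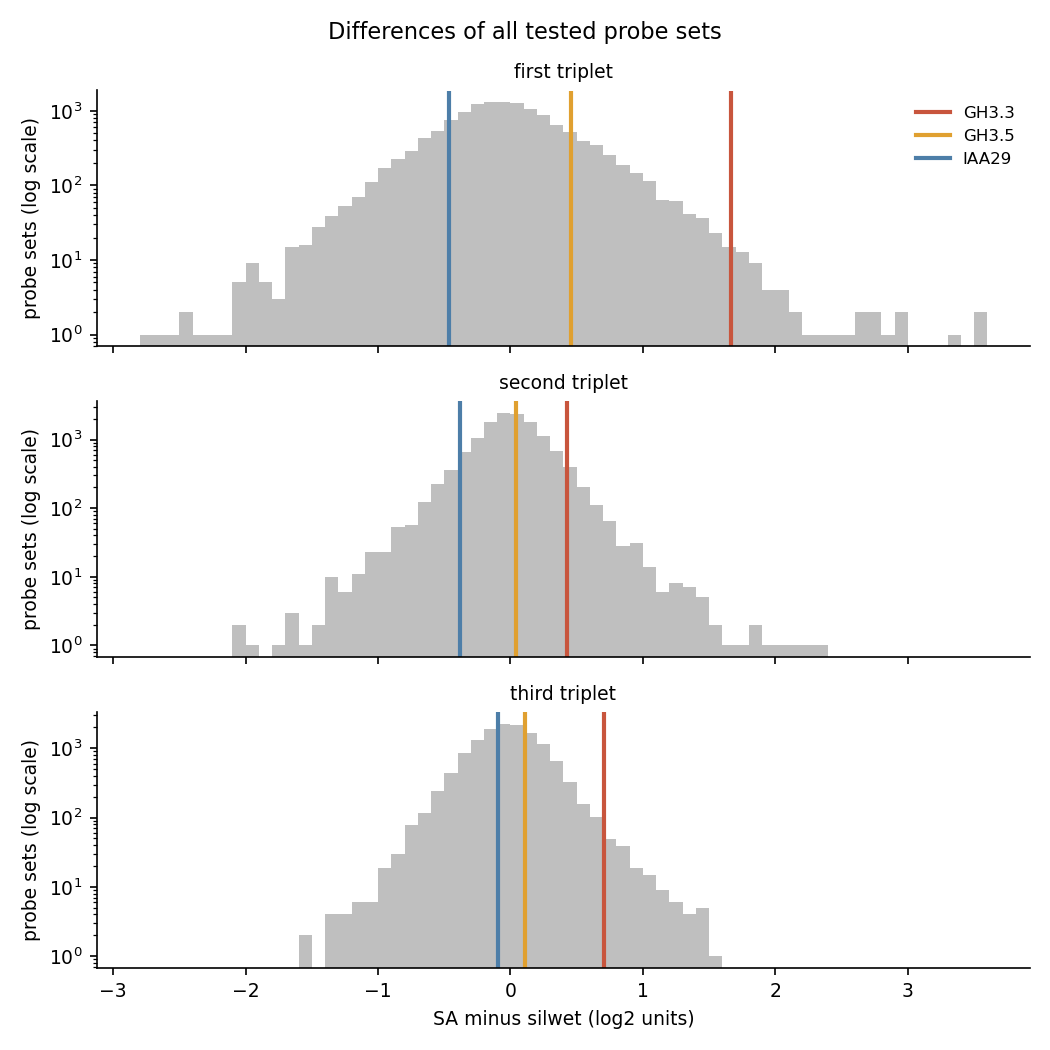
Number of tested probe sets (log axis) by their SA minus silwet difference in log2 units, in bins of 0.1, for each array triplet; coloured lines mark the 3 genes. GH3.3 lies in the upper tail of the first triplet, where 49 probe sets exceed its 1.66, and the spread of all differences is wider there than in the other triplets.

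Among SA-treated plants, GH3.3 and GH3.5 were both lower in the second triplet than in the first. The order of the triplets is only that of the title numbers. GH3.3 was at 145, 163 and 336 in the first and 89.4, 44.9 and 81.5 in the second, without overlap. It was lower by 1.54 log2 units, with a standard error of 0.41 and an adjusted p of 0.00906 (limma). GH3.5 was at 111, 80.2 and 64.7 against 42.1, 43.6 and 39.6, also without overlap. It was lower by 0.99, with a standard error of 0.27 and an adjusted p of 0.0104 (limma). In the same comparison 4174 probe sets passed (30.6%), with 2004 lower (14.7%) and 2170 higher (15.9%), and 21.1% of probe sets had all arrays of the second SA triplet below those of the first. A call there was common. GH3.3 lost the call without SA array 12 (-1.16, adjusted p = 0.0525) or SA array 14 (-1.23, adjusted p = 0.0510), and GH3.5 lost it without SA array 10 (-0.79, adjusted p = 0.0566, limma). IAA29 differed by 0.27 in the opposite direction (limma, adjusted p = 0.597), with a range of 0.13 to 0.51 when 1 array was left out, the highest without SA array 10. GH3.3 was lower by 1.76 without that array (limma, adjusted p = 0.00835). The difference of GH3.5 between SA and silwet changed by -0.41 from the first triplet to the second (limma, adjusted p = 0.562). From the second SA triplet to the third the differences were -0.23, 0.07 and -0.07 for GH3.3, GH3.5 and IAA29 (limma, adjusted p = 1.00 for each), and 0 probe sets passed (0%), with 616 at an unadjusted p under 0.05.

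Among plants given silwet alone, no difference from the first triplet to the second or from the second to the third passed for the 3 genes. The first and the third silwet triplets were not compared for GH3.3, at 5.98 and 5.18, nor for GH3.5. From the first to the second triplet GH3.3 differed by -0.30, GH3.5 by -0.58 and IAA29 by 0.19 log2 units (limma, adjusted p = 0.884, 0.530 and 0.915), in a comparison where 43 probe sets passed (0.315%). GH3.5 was at 5.92 ± 0.08 in the first silwet triplet and at 5.34 ± 0.56 in the second (SD, n = 3 each). All 3 arrays of the second silwet triplet lay below those of the first, as for 6.95% of probe sets, but silwet array 5, at 58.27, was only just below silwet array 1, at 58.48. Without silwet array 6 the difference of GH3.5 was -0.29 (limma, adjusted p = 0.938). From the second to the third triplet the differences were -0.50, 0.0078 and -0.36 (limma, adjusted p = 0.877, 0.997 and 0.888), and 0 probe sets passed (0%), with 668 at an unadjusted p under 0.05. These comparisons share arrays with those between SA and silwet, and are given side by side and not as support for them.

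Ordered by mean log2 signal, GH3.3 was at 7.64 on the first SA triplet, 6.11 on the second SA triplet, 5.98 on the first silwet triplet, 5.88 on the third SA triplet, 5.68 on the second silwet triplet and 5.18 on the third. Only the step from the first SA triplet to the next group passed, which is the comparison of the first and second SA triplets already given. The remaining neighbours differed by 0.10 to 0.50, with a standard error of 0.41. For all 3 genes the order was set by the same values, so the steps are a description and no new test. GH3.5 was at 6.38 on the first SA triplet and 5.92 on the first silwet triplet, and the other 4 groups lay between 5.34 and 5.46. No neighbours in that order passed (limma, adjusted p of at least 0.301), although the first and second SA triplets differed. For IAA29 the 3 silwet groups, at 5.57, 5.38 and 5.21, stood above the 3 SA groups, at 5.19, 5.12 and 4.92. The steps were 0.03 to 0.20 against a standard error of 0.35, and the share of all probe sets with such an order was not counted.

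Between replicate numbers none of the 3 genes passed, where 1159 of all probe sets did (8.49%). GH3.3 differed from replicate 1 by -0.42 in replicate 2 and 0.06 in replicate 3 (limma F test, adjusted p = 0.396). GH3.5 differed by -0.15 and -0.43 (adjusted p = 0.188) and IAA29 by 0.21 and 0.25 (adjusted p = 0.713, limma F tests). Separate plantings or pools are not mentioned in the labels, so each p-value measures only how far these samples spread, and that spread may be technical.

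Of the other genes of the auxin pathway few could be read. The lists held 99 genes of auxin conjugation, repression, perception, response factors, synthesis, transport and breakdown. The annotation used here names 18 of them, and 6 passed the filter, 3 of which are the members above. No auxin receptor, response factor or transporter was among those named, and no SAUR gene (a family of small auxin-induced transcripts) was named either. Of the 6 tested, 1 rose in the first triplet (GH3.3) and 0 fell, where 6.19% of all probe sets rose. Their median difference was 0.22 in the first triplet and 0.13 averaged over triplets, against -0.05 and -0.03 over all probe sets tested. For the 3 tested genes other than GH3.3, GH3.5 and IAA29 the medians were -0.01 and 0.12.

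IAA18, an Aux/IAA gene like IAA29, had a signal between 102 and 160 on all 18 arrays and differed by -0.01, 0.22 and 0.14 log2 units in the 3 triplets. YUC2, a flavin monooxygenase that makes auxin, had 30.1, 27.8 and 36.3 on silwet arrays 1, 2 and 3 and 18.5, 25.0 and 23.2 on SA arrays 10, 11 and 12. These groups did not overlap, but the difference of -0.50 (standard error 0.22) did not pass (limma, adjusted p = 0.143), and SA arrays all below the silwet arrays were found for 17.8% of probe sets. It was -0.37 without SA array 10 (limma, adjusted p = 0.354). AT1G14130, from the list of auxin oxidation, had 35.3, 42.8 and 36.3 on silwet arrays 1, 2 and 3 and 46.8, 49.0 and 60.4 on SA arrays 10, 11 and 12. These groups did not overlap either, and SA arrays all above the silwet arrays were found for 12.7% of probe sets. The difference was 0.45 (limma, adjusted p = 0.213), or 0.52 without SA array 10 (limma, adjusted p = 0.219). The other GH3 genes named, GH3.1, GH3.9 and GH3.17, were left out as dim, with signals of at most 5.50, 18.7 and 33.0, as were IAA20, IAA30, IAA31, IAA33 and IAA34, whose signals were at most 12.9.

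HAT2, a homeodomain-leucine zipper gene known to be induced by auxin and the one gene tested of the 10 on the list of shade and phytochrome-interacting factor genes, was lower with SA in the first triplet. Its signal was 117, 112 and 148 on silwet arrays 1, 2 and 3 and 81.7, 60.5 and 61.6 on SA arrays 10, 11 and 12. The groups did not overlap, with the SA arrays all below, as for 17.8% of probe sets. The difference was -0.89 (standard error 0.25, limma, adjusted p = 0.0270), where 6.11% of all probe sets fell. It did not pass without silwet array 3 (-0.77, adjusted p = 0.109), SA array 11 (-0.81, adjusted p = 0.0941) or SA array 12 (-0.83, adjusted p = 0.0854, limma), and it was -1.03 without SA array 10 (limma, adjusted p = 0.0251). In the second and the third triplet HAT2 differed by 0.0077 and 0.14 (limma, adjusted p = 1.00 and 0.984).

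**Figure D4:**
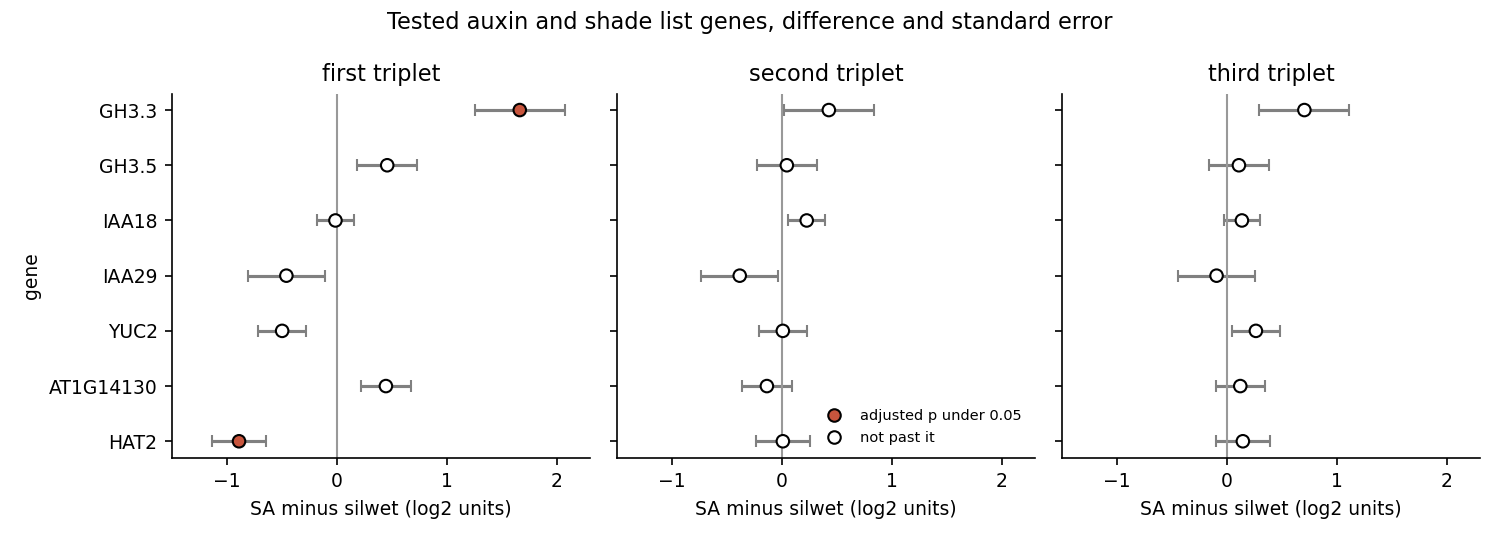
SA minus silwet in log2 units (horizontal axis) for the 7 tested genes of the auxin and shade lists, by array triplet; bars are standard errors and filled points passed an adjusted p of 0.05. In the first triplet GH3.3 (1.66) and HAT2 (-0.89) passed, and in the second and the third triplet none did.

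The transcripts most like each member over the 18 arrays were named by Pearson's r of log2 signal among 7355 other probe sets that name 1 gene. For GH3.3 they were AT1G76070 (r = 0.90), AT3G48020 (0.89), AT5G12340 (0.88), AT2G41640 (0.87) and AT5G67350 (0.87), with differences of 0.74 to 1.38 log2 units in the first triplet. Each of these passed (limma, adjusted p of 0.00432 to 0.0462), where 6.19% of all probe sets were called higher. For GH3.5 they were AT2G35920 (0.88), AT2G42950 (0.84), AT2G16595 (0.84), AT3G62920 (0.83) and AT2G20560 (0.82), with differences of 0.33 to 0.78, of which AT2G42950 and AT2G16595 passed. For IAA29 they were AT5G54630 (0.86), AT5G07580 (0.80), AT3G12180 (0.80), AT1G74270 (0.79) and AT5G15390 (0.77), with differences of -0.38 to -0.16, none of which passed. GH3.3 and GH3.5 had r = 0.58 with each other, and 517 named probe sets were more like GH3.3 than GH3.5 was. These values describe the arrays, which share treatments, triplets and replicate numbers, and they are no test. The transcripts were chosen on the same arrays that gave their differences. Neither those differences nor their calls are therefore support for the differences of the members.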

How the data were processed

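The authors deposited 1 table of linear intensities, which are MAS5 signals per the submitters' processing notes. The MAS5 version, the genome build behind the array and any further steps are not given in the sources used here. Scaling by the authors to a target of 100.0 is seen in the values, as the mean of every array after trimming 2% from each end. All 18 columns were used, and no 2 held the same values (r of log2 signal 0.933 to 0.987 over 153 pairs).

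The 20th percentile of each array served as a floor, followed by log2. The 64 controls and probe sets with a mean under the 40th percentile were left out. One mean for each of the 6 treatment and triplet groups was fitted with limma 3.58.1 in R 4.3.3 (a trended, robust eBayes), using Benjamini-Hochberg adjustment within each comparison and a threshold of 0.05. Fold changes are on this floored log2 scale. Single values were tested by exact permutation within triplets in Python 3.11.15. The fit was tested on simulated data with independent noise on each array. That simulation lacks the likeness between arrays of the same replicate number, so it cannot speak to p-values that ignore it. The members and lists were chosen with earlier results of these data known. By rule, the text names list genes that passed or, up to 4 a list, had the smallest p, and the 5 transcripts most like each member. Genes were named by the platform annotation, updated through an NCBI gene table of TAIR10.1, used for names only; 53.9% of tested probe sets name 1 gene.

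Whether replicate numbers pair the arrays was checked on deviations from group means, averaged within a treatment. Between SA and silwet these correlated at 0.60, 0.56 and 0.63 for the same number and at -0.06 or below for different numbers. Deviations cancel out over the replicate numbers of a group, so positive values for the same number bring negative ones for different numbers. Within the first triplet the same numbers correlated at 0.26, 0.26 and 0.43. In the second they correlated at 0.54, 0.40 and 0.55, and in the third at 0.73, 0.44 and 0.51. Arrays of the same number were taken as pairs from these values, and no label states it. The main fit and the exact permutation tests do not use this pairing, so their p-values ignore it. The fit with the replicate block is therefore given as an alternative, and no paired permutation test was run.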

Additional observations from a re-analysis of the deposited data

How the results depend on the processing

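No call of the 3 genes changed when the floor was dropped or replaced by adding 16, the filter was dropped or set at the 60th percentile (which left out GH3.5 and IAA29), or arrays were quantile normalized, median centred or weighted. The same held for an eBayes step with neither trend nor robustness, the replicate block and a fit of 9 against 9 arrays, of which the last was run for the average only. GH3.3 in the first triplet ranged from 1.43 to 1.72 (adjusted p of 0.0103 to 0.0207). With the replicate block its difference stayed at 1.66 (adjusted p = 0.0109). Values near 0 changed sign: GH3.5 between the second and the third silwet triplet was -0.0061 with the added 16, -0.0657 with quantile normalization, -0.0612 with median centring and -0.0680 with array weights. Between the second and the third SA triplet GH3.5 was -0.0037 with median centring, and in the second triplet it was -0.0101 between SA and silwet with array weights. The cause was not tested.

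With 1 array left out, the difference of GH3.3 between SA and silwet in the first triplet ranged from 1.25 to 2.01. Its difference from the first SA triplet to the second ranged from -1.76 to -1.16, and that of GH3.5 from -1.18 to -0.79. GH3.3 minus GH3.5 ranged from 0.54 to 0.87. The averages of GH3.3, GH3.5 and IAA29 ranged from 0.79 to 1.05, 0.11 to 0.29 and -0.44 to -0.21, and GH3.3 ranged from 0.24 to 0.73 in the second triplet and from 0.51 to 1.00 in the third. IAA29 ranged from -0.71 to -0.21 in the first triplet and from -0.52 to -0.18 in the second, and GH3.5 from 0.25 to 0.64 in the first. Between the first SA triplet and the second, IAA29 ranged from 0.13 to 0.51. Between silwet triplets GH3.3 ranged from -0.71 to 0.0519, GH3.5 from -0.84 to -0.29 and IAA29 from 0.0144 to 0.44 (first to second), and GH3.3 from -0.80 to -0.31, GH3.5 from -0.29 to 0.27 and IAA29 from -0.66 to 0.0083 (second to the third). From the second to the third SA triplet they ranged from -0.54 to 0.0197, -0.17 to 0.27 and -0.28 to 0.25. Between SA and silwet GH3.5 ranged from -0.25 to 0.31 in the second triplet and from -0.14 to 0.31 in the third, where IAA29 ranged from -0.46 to 0.22.

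Counts of probe sets passing between SA and silwet moved more. In the first triplet 1679 became 2519 with the replicate block and 931 to 1729 with 1 array left out. In the second, 41 became 69 with array weights and 15 to 45 with 1 array left out. In the third, 2 became 4 with the 60th percentile filter, 0 with median centring, 7 with the replicate block and 0 to 4 with 1 array left out. With array weights it became 41, in a fit where silwet array 8 had by far the highest weight, 6.01. On average, 4 became 7 without a filter, 2 with median centring, 0 with 9 against 9 and 2 to 8 with 1 array left out (limma; 670 had an unadjusted p under 0.05). For the change between triplets, 1141 became 1731 with array weights, 1828 with the replicate block and 686 to 1167 with 1 array left out. The lowest signal of the 3 genes was 4.28 times the 20th percentile of its array. The values of HAT2, YUC2 and AT1G14130 with arrays left out were added after seeing the data.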
